A study of Homo sapiens with 12 samples.

Results

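The genes described here are 9 genes of HLA class I antigen presentation, HLA-B, HLA-C, HLA-E, HLA-F, B2M, TAP1, TAP2, TAPBP and NLRC5, chosen by gene name from the 32152 genes of the expression table. All 9 were found, each in 1 row, and all 9 were among the 13737 protein-coding genes whose values were high enough to test. Their RNA was measured in 12 libraries from MDA-MB-231 and Hs-578T, established human cell lines of triple-negative breast cancer, a cancer that lacks the estrogen and progesterone receptors and has no HER2 amplification. Each line was sequenced as parental controls, as cells labelled ERK5-ko and as cells labelled MEK5DD, with 2 libraries of each. ERK5-ko cells were made with CRISPR/Cas9 guides against MAPK7, the gene of the kinase ERK5, and grown from single cells, and the MDA-MB-231 knockout was the only clone that survived. Which Hs-578T clone was sequenced is not given in the sources used here. Traits of a clone and the ERK5-ko label could not be told apart in any comparison with these cells. MEK5DD is the common name of an activated form of MEK5, the kinase directly above ERK5, whose gene is MAP2K5, and how these cells were made is not given in the sources used here. The parental libraries are labelled parental control, and no library is labelled as a vector control. Whether the parental cells carried a vector is not given in the sources used here. The labels gave passages 29 and 30 for parental MDA-MB-231, 7 and 8 for its ERK5-ko cells and 10 and 11 for its MEK5DD cells. In Hs-578T they were 83 and 84 for parental cells and 8 and 9 for both ERK5-ko and MEK5DD cells. Passage and label could therefore not be told apart in any comparison with parental cells. The paper gives the cells from which the ERK5-ko lines were made a higher passage than these ERK5-ko labels. The ERK5-ko numbers thus do not count from the same start as the parental ones, and do not mean that these cells were younger. Nothing in the labels says that the libraries of a group were separate cultures beyond their passage, so the tests measure the spread between libraries, which may be technical.

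Class I molecules show peptides from inside the cell to CD8+ T cells. HLA-B and HLA-C are classical heavy chains, HLA-E and HLA-F are less variable relatives that are known as ligands of natural killer cell receptors, and each heavy chain pairs with beta-2 microglobulin, the product of B2M. TAP1 and TAP2 form the transporter that carries peptides into the endoplasmic reticulum, and tapasin, the product of TAPBP, holds the empty class I molecule at that transporter. NLRC5 is the transactivator of class I genes. Class I promoters are known to carry an interferon response element (ISRE), a kappaB site and the SXY module, whose X2 and Y parts are bound by CREB/ATF and NF-Y factors.

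To show where letter patterns of these elements occur, the 200 bases upstream of the annotated start were searched. They were taken from the RefSeq promoter table (GRCh38.p14) for the 7 members matched by symbol, leaving HLA-E and NLRC5. TAP1 has 2 entries, and the one further upstream was used. The motifs were searched on both strands as GAAA, 2 bases of any kind and GAAA for the ISRE, as GGG, 2 bases of any kind, TT, 1 base of any kind and CC for kappaB, as TGACG for the core of X2 and as ATTGG for the core of Y. Capitals mark every match, on either strand, in these sequences, written 5′ to 3′ on the strand of the gene.
HLA-B, chr6:31357180-31357379, minus strand: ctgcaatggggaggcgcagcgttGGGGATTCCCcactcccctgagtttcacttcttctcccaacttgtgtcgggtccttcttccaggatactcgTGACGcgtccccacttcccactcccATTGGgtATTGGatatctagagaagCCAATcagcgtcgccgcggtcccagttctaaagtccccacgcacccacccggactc
HLA-C, chr6:31272093-31272292, minus strand: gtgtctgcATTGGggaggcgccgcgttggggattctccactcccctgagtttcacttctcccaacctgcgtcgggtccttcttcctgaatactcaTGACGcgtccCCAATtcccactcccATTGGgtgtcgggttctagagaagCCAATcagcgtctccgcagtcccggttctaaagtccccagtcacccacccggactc
HLA-F, chr6:29723234-29723433, plus strand: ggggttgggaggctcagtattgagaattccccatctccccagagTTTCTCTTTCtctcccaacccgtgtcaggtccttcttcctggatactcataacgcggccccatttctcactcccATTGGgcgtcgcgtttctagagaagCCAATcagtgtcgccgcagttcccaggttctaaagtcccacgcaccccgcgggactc
B2M, chr15:44711317-44711516, plus strand: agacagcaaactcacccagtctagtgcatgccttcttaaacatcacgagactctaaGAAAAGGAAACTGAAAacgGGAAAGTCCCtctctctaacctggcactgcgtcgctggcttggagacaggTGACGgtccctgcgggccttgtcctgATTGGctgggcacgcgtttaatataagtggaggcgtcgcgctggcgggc
TAP1, chr6:32853705-32853904, minus strand: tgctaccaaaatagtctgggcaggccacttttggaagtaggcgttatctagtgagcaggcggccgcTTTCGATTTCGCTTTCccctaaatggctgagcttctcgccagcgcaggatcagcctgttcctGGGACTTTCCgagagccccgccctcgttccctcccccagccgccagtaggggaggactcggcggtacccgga
TAP2, chr6:32838740-32838939, minus strand: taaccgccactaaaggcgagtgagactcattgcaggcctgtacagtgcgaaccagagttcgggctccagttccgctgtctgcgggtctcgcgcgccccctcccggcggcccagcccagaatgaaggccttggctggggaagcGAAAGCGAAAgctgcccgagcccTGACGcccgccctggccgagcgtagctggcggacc
TAPBP, chr6:33314079-33314278, minus strand: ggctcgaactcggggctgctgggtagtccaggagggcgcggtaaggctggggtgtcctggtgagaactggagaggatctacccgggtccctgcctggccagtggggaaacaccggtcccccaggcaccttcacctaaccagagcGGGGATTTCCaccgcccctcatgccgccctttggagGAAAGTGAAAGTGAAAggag

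The 7 upstream regions differed in which patterns they matched. The exact ISRE pattern was matched in 5 of them, all but HLA-B and HLA-C. It was matched in 2.4% of 35116 human promoter windows of the same length. Neighbouring ISRE matches overlapped in B2M, TAP1 and TAPBP. The kappaB motif was found upstream of HLA-B, B2M, TAP1 and TAPBP, and in 4.28% of all windows. The X2 core was found upstream of HLA-B, HLA-C, B2M and TAP2, and the Y core upstream of HLA-B, HLA-C, HLA-F and B2M, against 18.4% and 28.0% of all windows. HLA-B, HLA-C and B2M were the members with both cores. These are exact matches of letters, and no factor was measured at them. An element that deviates from its pattern is missed, so a region without a match may still hold one. HLA-B and HLA-C, for example, hold gagtttcacttct, close to the gagTTTCTCTTTC of HLA-F, and were not counted for it.

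**Figure D1:**
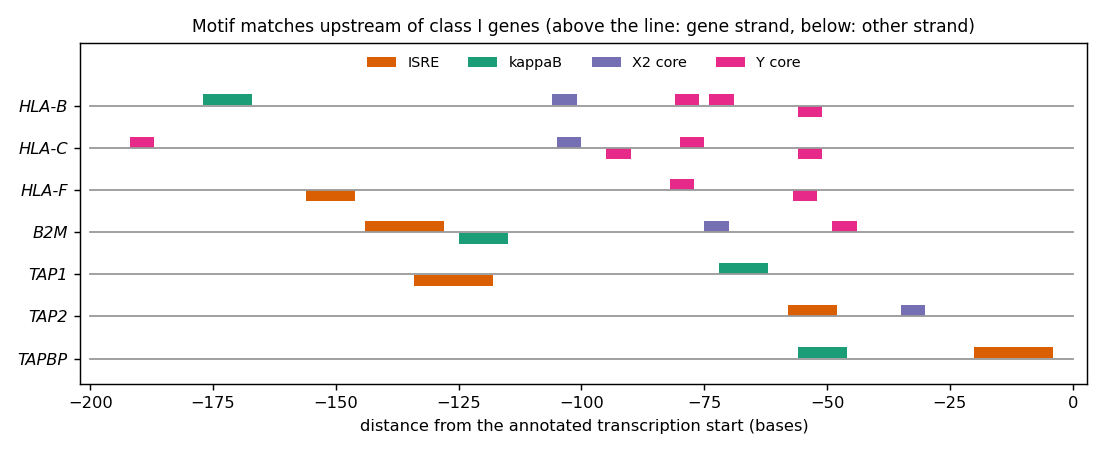
Positions of the motif matches in the 200 bases upstream of 7 class I genes, with distance from the annotated transcription start in bases on the x axis and 1 line per gene. Matches on the strand of the gene are drawn above the line and those on the other strand below it, and ISRE matches stand in 5 of the 7 genes.

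The libraries held 20248162 to 27791195 reads, which were recovered from the deposited values. The counts of replicates differed by more than counting noise in every group, with a chi-square per degree of freedom of 2.81 to 8.78 in 4 groups, 30.7 in parental Hs-578T and 41.9 in Hs-578T MEK5DD, so the replicates of these last 2 groups stood furthest apart. The RNA of MAPK7 did not fall under the ERK5-ko label. Its RPKM, which scales reads to the length of the gene model and to the library total, was 13.3 and 14.3 in parental MDA-MB-231 and 16.3 and 17.8 with the ERK5-ko label, and 13.97 and 16.0 in parental Hs-578T and 17.8 and 18.1 with that label. Neither difference passed the test (adjusted p = 0.071 and 0.0624), so the RNA does not check this label. The paper reported by Western blot that ERK5 protein was much reduced in its ERK5-ko cells of both lines. Protein was not measured in these libraries, and the groups are called here by their labels. MAP2K5 was 12.9 and 13.6 RPKM in parental MDA-MB-231 and 188 and 184 in its MEK5DD libraries, but only 14.6 and 16.9 in parental Hs-578T and 21.3 and 23.8 in its MEK5DD libraries. Among 8 listed line markers, the estrogen receptor gene ESR1 had 1 to 7 reads in any library and the progesterone receptor gene PGR 0 to 23. The mesenchymal marker VIM had 51976 to 136278 reads. The epithelial marker KRT18 was high as well, with 3718 to 21252, and EPCAM had 212 to 727 in MDA-MB-231 but 1 or 2 in Hs-578T. The HER2 gene ERBB2 had 1214 to 2965 reads. Of 8 leukocyte markers listed, values of 6 were analysed here, CD14 and LYZ alone were high enough to test, CD3E had 0 or 1 read in every library and PTPRC 0 to 13, and the 6 together summed to between 0.612 and 2.82 RPKM, against 1397 to 3363 RPKM for the 9 class I genes.

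In parental MDA-MB-231 the members spanned 2 orders of magnitude. HLA-B had a mean of 807 ± 20.1 RPKM (SD, n = 2) and B2M 715 ± 36.4, above 99.5% and 99.3% of the tested genes. HLA-C (277 ± 3.60), HLA-E (241 ± 1.88) and TAPBP (199.6 ± 12.6) followed, then TAP1 (50.9 ± 0.634) and TAP2 (40.4 ± 3.04). NLRC5 (12.1 ± 0.297) and HLA-F (6.91 ± 0.932) were the lowest. No neighbours in this order overlapped in their 2 libraries. The order also depends on the length used. The authors' length is a mean over annotated transcripts, 2174 bases for NLRC5 whose longest transcript has 6822, and per kilobase of the longest transcript NLRC5 and HLA-F both had a mean of 3.86 RPKM in parental MDA-MB-231.

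Parental Hs-578T had a different order, led by B2M at 1097 ± 98.2 RPKM, followed by HLA-B (293 ± 40.1), HLA-C (204 ± 19.96), TAPBP (182 ± 10.7) and HLA-E (130.4 ± 6.79). HLA-C and TAPBP differed by less than the spread of HLA-C, which reached from 189.5 to 218 RPKM while TAPBP lay at 174 and 189. In the fit of log2(RPKM + 0.5) by limma, 6 of the 9 genes were higher in parental MDA-MB-231 than in parental Hs-578T, and B2M was lower. Over all tested genes 46% were higher and 31.3% lower in that comparison, so that most genes differed between the lines. HLA-B was 2.76-fold higher in MDA-MB-231 (log2 difference 1.46 ± 0.14, SE, adjusted p = 1.75e-06), the widest difference among the 9. B2M stood at 0.653-fold (log2 -0.61 ± 0.15, adjusted p = 0.00262). HLA-F and TAPBP did not pass. Scaling by median ratios instead of total reads moved the median of all genes by -0.21 in this comparison, and HLA-C (log2 0.45, adjusted p = 0.0045) then had an adjusted p of 0.152.

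**Figure D2:**
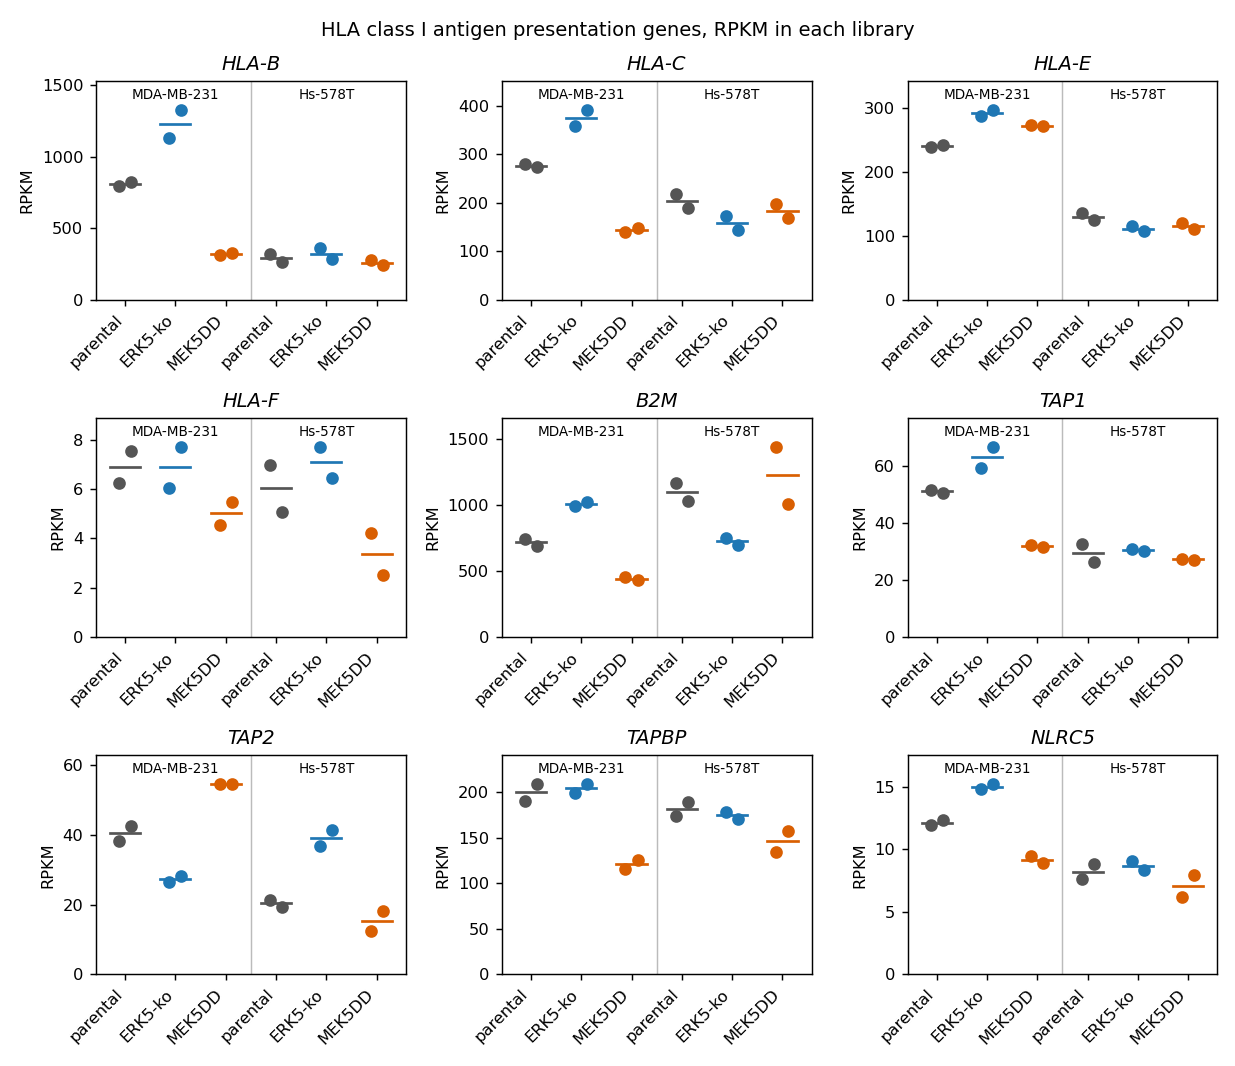
RPKM of the 9 genes in each of the 12 libraries, 1 panel per gene on a linear axis from 0, with 1 point per library and a bar at the mean of the 2 libraries of a group. HLA-B reached 1130.5 and 1327 RPKM in MDA-MB-231 labelled ERK5-ko and 316 and 325 in its MEK5DD libraries, while its 6 Hs-578T libraries lay between 241 and 360.0.

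The question asked of both engineered states was how the RNA of each line differed from its parental controls. In MDA-MB-231 labelled ERK5-ko, 4 of the 9 genes were higher than in parental controls, HLA-B, HLA-C, HLA-E and B2M, and TAP2 was lower, where 6.91% of the tested genes were higher and 10.4% lower. With MEK5DD in the same line 6 genes were lower, HLA-B, HLA-C, B2M, TAP1, TAPBP and NLRC5, and TAP2 was higher, against 23.8% of the tested genes lower and 17.5% higher. The classical heavy chains and B2M thus stood above parental levels under the ERK5-ko label and below them with MEK5DD, and TAP2 stood the other way round. Both comparisons use the same 2 parental libraries. The median log2 fold change of the 9 genes was 0.30 and -0.67 in these comparisons, beside -0.04 and -0.01 over all tested genes. In bulk RNA, fewer cells with a transcript and less of it per cell cannot be told apart.

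In Hs-578T labelled ERK5-ko, TAP2 was higher and HLA-C and B2M were lower than in parental controls, with 19.7% of the tested genes higher and 19.7% lower. With MEK5DD in Hs-578T, HLA-F and TAPBP were lower and no member passed as higher, against 17% of the tested genes lower and 6.44% higher. At an unadjusted p under 0.05 no member was higher there either, and limma voom on the recovered reads gave 0 as well. The median log2 fold change of the 9 genes in Hs-578T was 0.05 and -0.17, beside 0.01 and -0.08 over all tested genes. The share of members that passed was near the share of all genes in both Hs-578T comparisons.

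**Figure D3:**
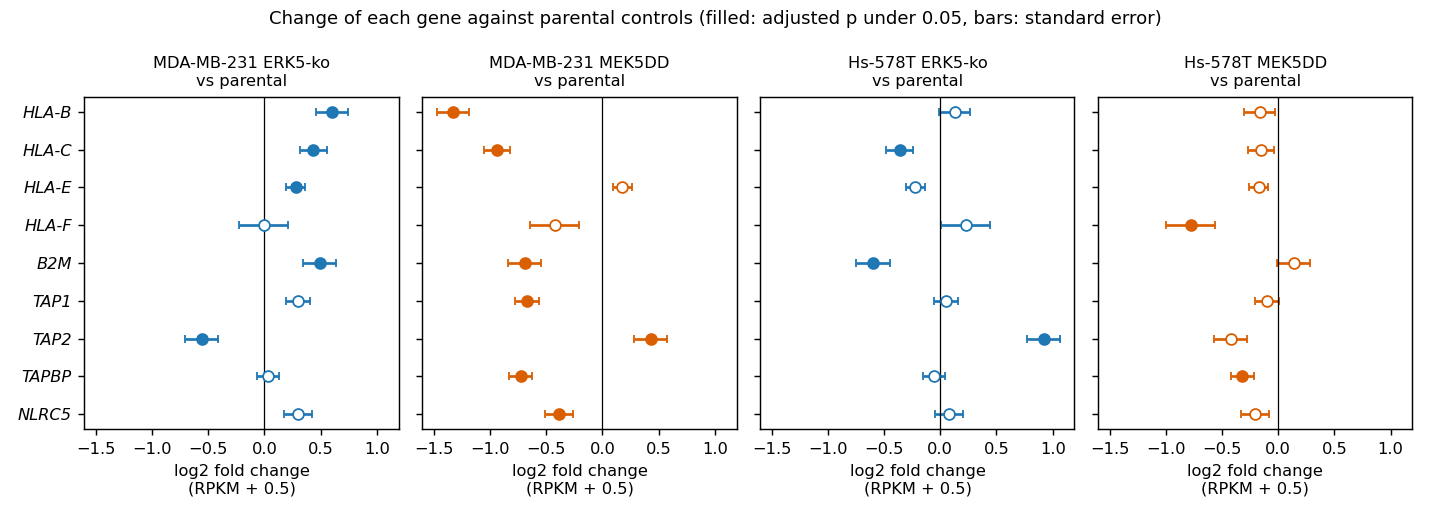
Log2 fold change of RPKM + 0.5 of each gene against the parental controls of its line (x axis) with its standard error, in 4 panels for the 4 comparisons. Filled points passed at an adjusted p under 0.05, and HLA-B in MDA-MB-231 with MEK5DD, at -1.33, lies furthest from 0.

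HLA-B (ENSG00000234745.9, chromosome 6, 31353872 to 31357188, minus strand) showed the widest range. Its RPKM in MDA-MB-231 was 793 and 821 in parental libraries, 1130.5 and 1327 under the ERK5-ko label and 316 and 325 with MEK5DD. The 3 groups did not overlap. HLA-B was 1.52-fold higher under the ERK5-ko label (log2 0.60 ± 0.14, adjusted p = 0.0136) and at 0.397-fold with MEK5DD (log2 -1.33 ± 0.14, adjusted p = 1.8e-05). It was the only member past the study's fold thresholds, above 1.5 or below 0.5, in MDA-MB-231, where 2.8% of the tested genes were past them as higher and 1.07% as lower under the ERK5-ko label, and 7.64% and 6.31% with MEK5DD. In Hs-578T its RPKM was 322 and 265, 360.0 and 283, and 281 and 241 in parental, ERK5-ko and MEK5DD libraries. These 3 groups overlapped, and neither comparison passed (adjusted p = 0.508 and 0.44).

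HLA-C (ENSG00000204525.14, chromosome 6, 31268749 to 31357158, minus strand) moved with HLA-B in MDA-MB-231. Its RPKM was 279 and 274 in parental libraries, 358 and 392 under the ERK5-ko label and 141 and 148 with MEK5DD, again without overlap. The fold against parental controls was 1.35 under the ERK5-ko label (log2 0.44 ± 0.12, adjusted p = 0.0259) and 0.522 with MEK5DD (log2 -0.94 ± 0.12, adjusted p = 6.66e-05). Among Hs-578T libraries HLA-C had 218 and 189.5 RPKM in parental cells, 173 and 144 under the ERK5-ko label and 198 and 168 with MEK5DD. The ERK5-ko libraries lay below both parental ones, at 0.778-fold (log2 -0.36 ± 0.12, adjusted p = 0.0301). The MEK5DD libraries overlapped them (adjusted p = 0.382). HLA-C and HLA-B share sequence as paralogs, the listed span of HLA-C covers 3287 of the 3317 bases of HLA-B on the same strand, and 6.71% of the 50-base words of the HLA-C transcript occur in another gene, so reads may have been split between them. The ratio of HLA-B to HLA-C was 2.84 and 2.99 in parental MDA-MB-231, 3.15 and 3.38 under the ERK5-ko label and 2.24 and 2.20 with MEK5DD, so the 3 groups did not overlap. In Hs-578T the ratio was 1.48 and 1.40 in parental libraries, 2.08 and 1.96 under the ERK5-ko label and 1.42 and 1.43 with MEK5DD. The parental and MEK5DD ratios overlapped there, and the ERK5-ko ratios lay above both.

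HLA-E (ENSG00000204592.8, chromosome 6, 30489467 to 30494205, plus strand) was higher together with HLA-B and HLA-C under the ERK5-ko label in MDA-MB-231, but was not lower with them under MEK5DD. In MDA-MB-231 its RPKM was 239.6 and 242 in parental libraries, 288 and 298 under the ERK5-ko label and 273 and 272 with MEK5DD. Both engineered groups lay above the parental one. The ERK5-ko difference passed (1.21-fold, log2 0.28 ± 0.08, adjusted p = 0.0424) and the MEK5DD difference did not (1.13-fold, log2 0.18 ± 0.08, adjusted p = 0.119). In Hs-578T its RPKM was 135 and 126, 116 and 107, and 120.2 and 111 in parental, ERK5-ko and MEK5DD libraries. Both engineered groups there lay below the parental one, but neither passed (adjusted p = 0.0538 and 0.163). In a fit that blocks on the replicate number, the ERK5-ko difference in Hs-578T (log2 -0.22) had an adjusted p of 0.0195.

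HLA-F (ENSG00000204642.13, chromosome 6, 29722775 to 29738528, plus strand) was the lowest heavy chain, with 47 to 192 reads in a library. Its RPKM in MDA-MB-231 was 6.25 and 7.57 in parental libraries, 6.07 and 7.72 under the ERK5-ko label and 4.55 and 5.49 with MEK5DD. The first 2 groups overlapped, and the MEK5DD libraries lay below both. That MEK5DD difference (log2 -0.42 ± 0.22) had an adjusted p of 0.148, and of 0.0108 with the replicate block. In Hs-578T the RPKM was 7.0 and 5.07 in parental libraries, 7.72 and 6.47 under the ERK5-ko label and 4.22 and 2.51 with MEK5DD. HLA-F fell with MEK5DD in Hs-578T, to 0.583-fold (log2 -0.78 ± 0.22, adjusted p = 0.025). Without parental replicate 1 the log2 fold change was -0.56 and without MEK5DD replicate 2 it was -0.45, and it did not pass in either case. Median-ratio scaling gave an adjusted p of 0.0525.

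B2M (ENSG00000166710.17, chromosome 15, 44711477 to 44718877, plus strand), the light chain shared by all heavy chains, moved in opposite directions in the lines under the ERK5-ko label. In MDA-MB-231 its RPKM was 741 and 689.6 in parental libraries, 991 and 1019 under the ERK5-ko label and 451 and 434 with MEK5DD. The groups did not overlap, and the folds were 1.41 (log2 0.49 ± 0.15, adjusted p = 0.0428) and 0.619 (log2 -0.69 ± 0.15, adjusted p = 0.00304). In Hs-578T its RPKM was 1166 and 1027 in parental libraries, 747 and 698 under the ERK5-ko label and 1438 and 1005 with MEK5DD. B2M was at 0.66-fold under the ERK5-ko label in Hs-578T (log2 -0.60 ± 0.15, adjusted p = 0.0081). The MEK5DD libraries spanned the parental ones (adjusted p = 0.559). Without MEK5DD replicate 2, the lower of that pair, the log2 fold change was 0.39 and it passed as higher (adjusted p = 0.0185). No 50-base word of the B2M transcript occurred in another gene.

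TAP1 (ENSG00000168394.10, chromosome 6, 32845209 to 32853978, minus strand) stood in the order of HLA-B in MDA-MB-231. In that line its RPKM was 51.4 and 50.5 in parental libraries, 59.2 and 66.6 under the ERK5-ko label and 32.2 and 31.6 with MEK5DD. The 3 groups did not overlap. With MEK5DD it fell to 0.629-fold (log2 -0.67 ± 0.11, adjusted p = 0.000374). The ERK5-ko difference of 1.23-fold (log2 0.30 ± 0.11) had an adjusted p of 0.0763, which the replicate block took to 0.0406. In Hs-578T TAP1 had RPKM values of 32.7 and 26.2, 30.9 and 29.9, and 27.4 and 27.1 in parental, ERK5-ko and MEK5DD libraries, all within or close to the parental range (adjusted p = 0.717 and 0.539). PSMB9, an immunoproteasome subunit, overlaps all 8770 bases of TAP1 on the opposite strand, and whether the counting used strand is not given in the sources used here. PSMB9 had 18.3 and 18.4 RPKM in parental MDA-MB-231, 14.2 and 16.7 under the ERK5-ko label and 11.3 and 11.6 with MEK5DD, so its ERK5-ko libraries lay below both parental ones (log2 -0.24, adjusted p = 0.357) while those of TAP1 lay above.

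TAP2 (ENSG00000204267.13, chromosome 6, 32821833 to 32838780, minus strand) moved against the other transporter subunit in MDA-MB-231. In that line its RPKM was 38.3 and 42.6 in parental libraries, 26.4 and 28.2 under the ERK5-ko label and 54.6 in both MEK5DD libraries. None of the groups overlapped. TAP2 fell to 0.679-fold under the ERK5-ko label (log2 -0.56 ± 0.15, adjusted p = 0.0233) and rose 1.35-fold with MEK5DD (log2 0.43 ± 0.15, adjusted p = 0.0347). In Hs-578T its RPKM was 21.3 and 19.4 in parental libraries, 36.7 and 41.2 under the ERK5-ko label and 12.4 and 18.2 with MEK5DD. The groups did not overlap there either, but their order was turned round. TAP2 was 1.89-fold higher under the ERK5-ko label (log2 0.92 ± 0.15, adjusted p = 0.000553), the 1 member past the study's fold thresholds in Hs-578T, where 9.35% of the tested genes were past them as higher and 3.27% as lower. With MEK5DD in Hs-578T no member was past them, beside 2.9% and 1.49% of the tested genes. The MEK5DD difference (log2 -0.42 ± 0.15) had an adjusted p of 0.0584, of 0.031 with the replicate block, and without MEK5DD replicate 2 it was -0.69 (adjusted p = 0.00136).

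Part of the reads of TAP2 may have been counted for a second entry of the table. XXbac-BPG246D15.9 (ENSG00000250264.1) is listed as a protein-coding gene on the same strand and covers all 16948 bases of TAP2, and 35.8% of the 50-base words of the TAP2 transcript occur in another gene. This entry was looked at after the values of TAP2 were seen. Its RPKM in MDA-MB-231 was 22.8 and 25.96 in parental libraries, 15.7 and 17.4 under the ERK5-ko label and 34.3 and 35.8 with MEK5DD. In Hs-578T it was 16.8 and 15.2, 26.2 and 29.1, and 9.73 and 13.9 in parental, ERK5-ko and MEK5DD libraries. The order of the groups was that of TAP2 in both lines, and the ratio of this entry to TAP2 lay between 0.596 and 0.655 in MDA-MB-231 and between 0.706 and 0.787 in Hs-578T. The level of TAP2 is therefore uncertain, while this ratio varied less between the groups of a line than TAP2 itself.

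The transporter subunits were compared within each library as the ratio of TAP1 to TAP2. In MDA-MB-231 this ratio was 1.34 and 1.19 in parental libraries, 2.25 and 2.36 under the ERK5-ko label and 0.589 and 0.578 with MEK5DD. In Hs-578T it was 1.53 and 1.35 in parental libraries, 0.841 and 0.726 under the ERK5-ko label and 2.21 and 1.49 with MEK5DD. Which subunit is the higher in a library depends on the length used. With the authors' mean lengths TAP2 exceeded TAP1 in the MEK5DD libraries of MDA-MB-231 and in the ERK5-ko libraries of Hs-578T. Per kilobase of the longest transcript the means in MDA-MB-231 with MEK5DD were 23.4 RPKM for TAP1 and 28.7 for TAP2, whereas in Hs-578T labelled ERK5-ko TAP1, at 22.3, was above TAP2, at 20.5. The order of the groups in this ratio does not depend on the length. Parental and MEK5DD ratios of Hs-578T lay close, at 1.53 and 1.49 for the nearest libraries.

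**Figure D4:**
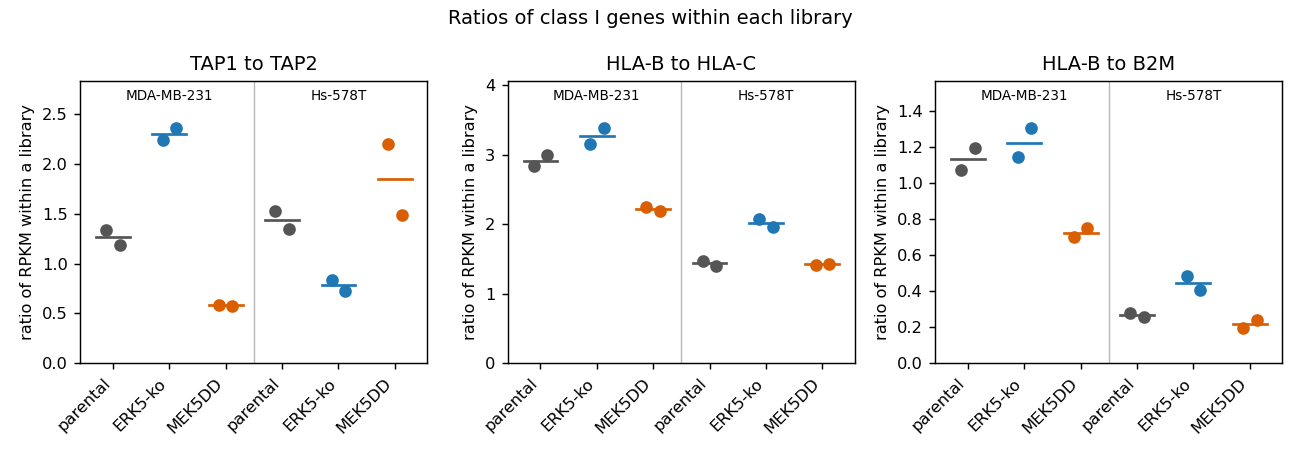
Ratios of RPKM within each of the 12 libraries for TAP1 to TAP2, HLA-B to HLA-C and HLA-B to B2M, with 1 point per library, a bar at the group mean and axes from 0. The TAP1 to TAP2 ratio lay at 2.25 and 2.36 in MDA-MB-231 labelled ERK5-ko and at 0.841 and 0.726 in Hs-578T with that label.

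Heavy chain and light chain were also not in a fixed ratio. HLA-B to B2M was 1.07 and 1.19 in parental MDA-MB-231, 1.14 and 1.30 under the ERK5-ko label and 0.701 and 0.747 with MEK5DD. The first 2 groups overlapped and MEK5DD lay below both. In Hs-578T this ratio was 0.276 and 0.258 in parental libraries, 0.482 and 0.405 under the ERK5-ko label and 0.195 and 0.240 with MEK5DD, so that HLA-B stood lower relative to B2M in all Hs-578T libraries than in any MDA-MB-231 library.

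TAPBP (ENSG00000231925.11, chromosome 6, 33299694 to 33314387, minus strand) was lower with MEK5DD in both lines. Its RPKM in MDA-MB-231 was 191 and 208 in parental libraries, 199 and 209 under the ERK5-ko label and 115 and 126 with MEK5DD. Parental and ERK5-ko libraries overlapped (adjusted p = 0.885), and with MEK5DD TAPBP fell to 0.605-fold (log2 -0.73 ± 0.10, adjusted p = 0.000147). In Hs-578T TAPBP had RPKM values of 174 and 189, 179 and 171, and 134 and 157 in parental, ERK5-ko and MEK5DD libraries. The MEK5DD libraries lay below both parental ones, at 0.801-fold (log2 -0.32 ± 0.10, adjusted p = 0.0402). That call was not kept without parental replicate 1 (log2 -0.38), parental replicate 2 (log2 -0.26) or MEK5DD replicate 1 (log2 -0.21), nor with median-ratio scaling (log2 -0.23, adjusted p = 0.119).

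NLRC5 (ENSG00000140853.15, chromosome 16, 56989485 to 57083531, plus strand), the transactivator, showed narrower differences. Its RPKM in MDA-MB-231 was 11.9 and 12.3 in parental libraries, 14.8 and 15.2 under the ERK5-ko label and 9.49 and 8.87 with MEK5DD. The 3 groups did not overlap and stood in the order of HLA-B. With MEK5DD NLRC5 fell to 0.767-fold (log2 -0.38 ± 0.12, adjusted p = 0.0284), and the ERK5-ko difference of 1.23-fold (log2 0.30 ± 0.12) had an adjusted p of 0.129. In Hs-578T its RPKM was 7.59 and 8.83, 9.06 and 8.32, and 6.20 and 7.96 in parental, ERK5-ko and MEK5DD libraries, which overlapped (adjusted p = 0.642 and 0.264). Without MEK5DD replicate 2 the log2 fold change with MEK5DD was -0.37 (adjusted p = 0.0348).

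Most calls in MDA-MB-231 labelled ERK5-ko were lost when any 1 library was left out, where every gene is tested with fewer libraries. The share of all tested genes that lose a call in such fits was not set beside these results. Without parental replicate 1, without parental replicate 2 or without ERK5-ko replicate 2 none of the 9 genes passed as higher, and without ERK5-ko replicate 1 only HLA-B did. TAP2 did not pass without any 1 of the 4 libraries. Directions held, with log2 fold changes of 0.49 to 0.72 for HLA-B, 0.37 to 0.50 for HLA-C, 0.25 to 0.30 for HLA-E, 0.44 to 0.54 for B2M and -0.63 to -0.48 for TAP2. With MEK5DD in this line 5 genes stayed lower whichever library was left out. The exceptions there were NLRC5 (log2 -0.43 to -0.34) and TAP2 (log2 0.36 to 0.51), which did not pass without any 1 of the 4. In Hs-578T labelled ERK5-ko, HLA-C and B2M did not pass without parental replicate 1 (log2 -0.26 and -0.51) or without ERK5-ko replicate 2 (log2 -0.23 and -0.55), and TAP2 passed throughout. Neither HLA-C nor B2M passed there when the Hs-578T libraries were fitted alone (adjusted p = 0.134 and 0.0909). In MDA-MB-231, HLA-E under the ERK5-ko label did not pass without the variance trend (adjusted p = 0.0576), and with no filter on low values neither B2M under that label (adjusted p = 0.0794) nor TAP2 with MEK5DD (adjusted p = 0.0591) passed. Quantile normalization took NLRC5 with MEK5DD to an adjusted p of 0.0608.

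The engineered groups were also set against each other, which leaves the parental libraries out, although these comparisons use the same engineered libraries as those above. In MDA-MB-231, 6 of the 9 genes were higher under the ERK5-ko label than with MEK5DD and TAP2 was lower, where 27.1% of the tested genes were higher and 27.9% lower. HLA-B differed 3.82-fold (log2 1.93 ± 0.14, adjusted p = 5.08e-07), HLA-C 2.59-fold (log2 1.38 ± 0.12) and B2M 2.27-fold (log2 1.18 ± 0.15). HLA-E did not pass (adjusted p = 0.329). HLA-F had an adjusted p of 0.129, and of 0.00865 with the replicate block. In Hs-578T, where both engineered groups carried the same passage labels, HLA-F, TAP2 and TAPBP were higher under the ERK5-ko label and B2M was lower, against 30.7% of the tested genes higher and 19.2% lower. TAP2 differed 2.54-fold (log2 1.34 ± 0.15, adjusted p = 2.23e-05), HLA-F 2.01-fold (log2 1.01 ± 0.22, adjusted p = 0.00288) and B2M stood at 0.601-fold (log2 -0.74 ± 0.15, adjusted p = 0.00182). TAPBP was close to the threshold (log2 0.26 ± 0.10, adjusted p = 0.0478) and did not pass with median-ratio scaling (log2 0.14, adjusted p = 0.242). The replicate block added HLA-B as higher (log2 0.29, adjusted p 0.106 without and 0.012 with the block) and HLA-C as lower (log2 -0.21, adjusted p 0.165 without and 0.0323 with it).

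The difference between the lines was tested itself, as the change in MDA-MB-231 minus the change in Hs-578T. For the ERK5-ko label HLA-C, HLA-E and B2M changed more upward in MDA-MB-231 and TAP2 more downward, where 18.3% of the tested genes were higher and 21.5% lower. The difference was -1.48 ± 0.21 for TAP2 (log2, adjusted p = 0.000252) and 1.09 ± 0.21 for B2M (adjusted p = 0.00195). HLA-B had a difference of 0.48 ± 0.20 with an adjusted p of 0.0795, and of 0.00763 with the replicate block. For MEK5DD, HLA-B, HLA-C, B2M, TAP1 and TAPBP changed more downward in MDA-MB-231 and HLA-E and TAP2 more upward, against 18.2% of the tested genes lower and 21.3% higher. HLA-B had the widest of these differences (-1.17 ± 0.20, adjusted p = 0.000877). HLA-E (0.35 ± 0.12, adjusted p = 0.0362) had an adjusted p of 0.0864 with median-ratio scaling. HLA-F and NLRC5 did not pass in either test. MAP2K5 itself rose by 3.77 on the log2 scale in the MEK5DD libraries of MDA-MB-231 but by 0.50 in those of Hs-578T, and the part of this difference in the others was not tested.

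Genes of the other steps of the class I pathway were counted beside the shares of all tested genes. In MDA-MB-231 these shares, first higher and then lower, were 6.91% and 10.4% under the ERK5-ko label and 17.5% and 23.8% with MEK5DD, and in Hs-578T 19.7% and 19.7% under the ERK5-ko label and 6.44% and 17% with MEK5DD. Of 6 genes of peptide loading and trimming none was higher and 1, the trimming peptidase ERAP1, was lower in MDA-MB-231 labelled ERK5-ko (log2 -0.42, adjusted p = 0.0204). With MEK5DD 3 of the 6 were lower, ERAP1 (log2 -0.59) and the chaperones CALR (-0.33) and PDIA3 (-0.31). In Hs-578T labelled ERK5-ko, CANX and ERAP1 were higher and TAPBPL, a relative of tapasin, was lower (log2 -1.42, adjusted p = 0.000318), and with MEK5DD 1 of 6, ERAP2, was lower. Of 5 immunoproteasome and activator genes none was higher in the 4 comparisons and 1 or 2 were lower in each, PSME2 and PSME1 under the ERK5-ko label in MDA-MB-231 and Hs-578T, and PSMB9 with MEK5DD in both lines, joined by PSME1 in MDA-MB-231. PSMB9 had log2 fold changes of -0.66 and -0.55 with MEK5DD. Of 3 constitutive proteasome subunits PSMB6 (log2 0.42) and PSMB7 (log2 0.32) were higher with MEK5DD in MDA-MB-231, and none passed in the other 3 comparisons. With MEK5DD in MDA-MB-231 the counts of 3 of 6, 2 of 5 and 2 of 3 in 1 direction were thus above the shares of all genes, in lists of few genes.

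Factors that act on class I promoters were counted in the same way. Of 12 such genes 1 passed in MDA-MB-231 labelled ERK5-ko, where 6.91% of all tested genes were higher and 10.4% lower. This was RFX5, a subunit of the factor on the X box, at log2 -0.40 (adjusted p = 0.00672). With MEK5DD RFX5 was higher (log2 0.33) and IRF1 (log2 -0.77, adjusted p = 0.000576) and NFYB (log2 -0.42) were lower, beside 17.5% and 23.8% of all tested genes. IRF1, which binds the ISRE, had 25.8 and 29.1 RPKM in parental MDA-MB-231 and 17.5 and 14.4 with MEK5DD. In Hs-578T 2 of the 12 were higher and 1 was lower under the ERK5-ko label, where 19.7% of all tested genes passed in each direction. With MEK5DD 4 of the 12 were lower, beside 17% of all tested genes, led by RFXAP (log2 -0.65), NFYC (-0.54) and IRF2 (-0.36), and none was higher, beside 6.44%.

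The receptor for interferon gamma stood in the same order as HLA-B in MDA-MB-231. Of 11 genes of interferon signalling, IFNGR1 (log2 0.33) and IFNGR2 (log2 0.29), its subunits, were higher under the ERK5-ko label and none was lower, beside 6.91% and 10.4% of all tested genes. With MEK5DD 5 of the 11 were lower and IRF9 was higher, where 23.8% of all tested genes were lower and 17.5% higher. The 2 with the widest fall were IFNGR2 (log2 -1.34, adjusted p = 2.38e-07) and IFNAR2 (-0.85). IFNGR2 had 75.3 and 77.5 RPKM in parental MDA-MB-231, 90.7 and 96.5 under the ERK5-ko label and 31.4 and 28.5 with MEK5DD. In Hs-578T 2 were higher and 3 lower under the ERK5-ko label, led by IFNGR1 (log2 -1.17), with 19.7% of all tested genes in each direction, and 1 was higher and 2 were lower with MEK5DD, beside 6.44% and 17%. Both Hs-578T counts lay near these shares.

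Genes that interferon induces did not follow HLA-B and HLA-C under the ERK5-ko label in MDA-MB-231. Of 12 such genes 8 were lower in MDA-MB-231 labelled ERK5-ko, among them IFIT3 (log2 -0.95, adjusted p = 0.000116) and IFIT1 (-0.68), and 2 were higher, GBP2 (log2 0.46) and OAS1 (log2 0.86), where 10.4% of all tested genes were lower and 6.91% higher. Their median log2 fold change was -0.51 beside 0.30 for the 9 class I genes. With MEK5DD 9 of the 12 were lower and none was higher, beside 23.8% and 17.5% of all tested genes. The median was -1.12, and OAS1 (log2 -2.02), MX1 (-1.57) and ISG15 (-1.38) fell the most. In Hs-578T 3 were higher and 5 lower under the ERK5-ko label, where 19.7% of all tested genes passed in each direction. There 1 was higher and 5 were lower with MEK5DD, beside 6.44% and 17% of all tested genes.

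Class II genes, which present peptides taken up from outside the cell, are a second HLA system with partly the same promoter factors. Of the 8 class II genes tested in MDA-MB-231, 7 were lower under the ERK5-ko label, led by HLA-DRB1 (log2 -2.13), HLA-DRA (-1.85) and HLA-DPB1 (-1.44), while HLA-B, HLA-C and B2M were higher, and 10.4% of all tested genes were lower. HLA-DRA had 44.8 and 42.2 RPKM in parental libraries and 10.7 and 12.7 under that label. The list also holds CIITA, the transactivator of class II genes, which was among the 7 lower genes (log2 -0.84, adjusted p = 0.00173). With MEK5DD 6 of the 8 were lower, led by HLA-DPA1 (log2 -1.16), beside 23.8% of all tested genes. In Hs-578T most class II genes were at or near 0 reads. The 10 listed genes summed to at most 4.50 RPKM in parental and MEK5DD libraries and to 9.90 and 11.7 under the ERK5-ko label. Of the 8 tested genes 3 passed as higher there, HLA-DPA1, HLA-DPB1 and HLA-DRB1, beside 19.7% of all tested genes. HLA-DRB1 had only 1 read in each parental library and 10 and 7 under that label. Its Hs-578T values stayed under 0.5 RPKM, as did those of CIITA, CD74, HLA-DRA and HLA-DMB. These genes entered the test through MDA-MB-231, so the count out of 8 is not comparable with that share in Hs-578T. HLA-DPA1 rose from 0.353 and 0.455 to 3.62 and 5.42 RPKM.

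Class I-like molecules were the last group. Of 8 tested, ULBP2, a stress ligand of the NKG2D receptor, was higher in MDA-MB-231 labelled ERK5-ko (log2 0.55), where 6.91% of all tested genes were higher. With MEK5DD 5 were lower, beside 23.8% of all tested genes, led by FCGRT (log2 -1.07), the neonatal Fc receptor that also pairs with B2M, and ULBP2 (-1.04). ULBP2 had 12.4 RPKM in both parental libraries, 17.4 and 19.4 under the ERK5-ko label and 5.51 and 6.09 with MEK5DD. In Hs-578T 2 were higher and 4 lower under the ERK5-ko label, led by FCGRT (log2 -1.21) and MR1 (-1.02), with 19.7% of all tested genes in each direction, and MICA alone was higher with MEK5DD (log2 0.40), beside 6.44%.

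**Figure D5:**
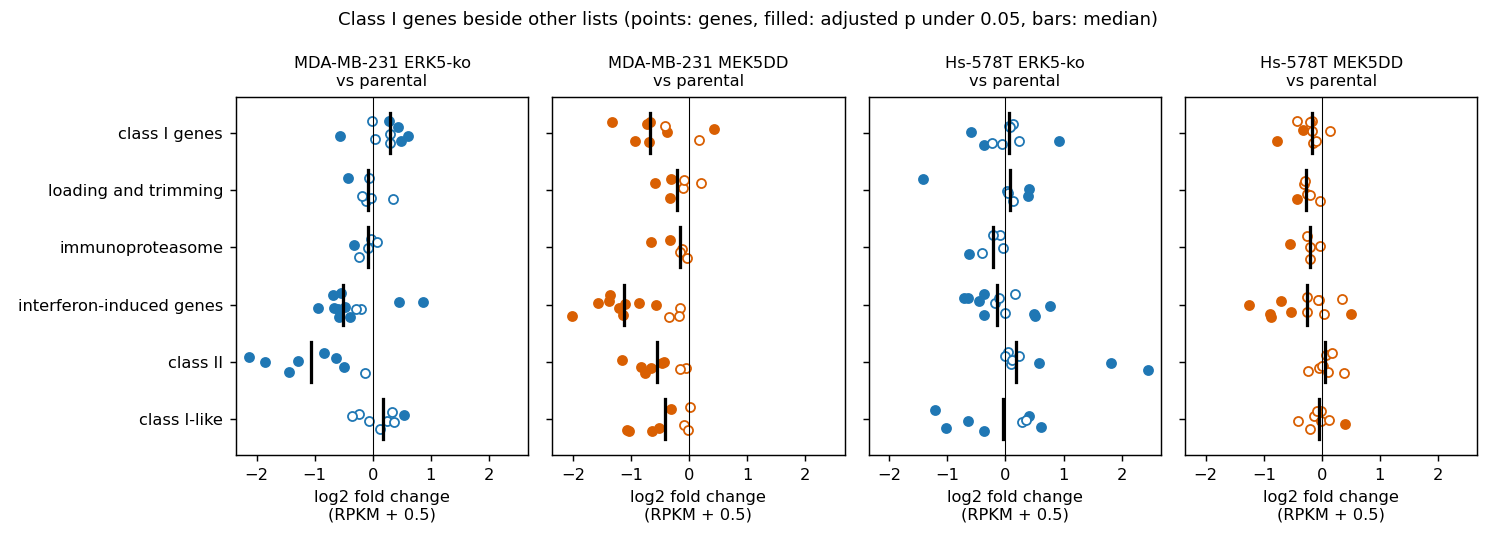
Log2 fold change of RPKM + 0.5 against parental controls (x axis) for the class I genes and 5 other lists, in 4 panels for the 4 comparisons, with 1 point per tested gene, filled where the adjusted p is under 0.05, and a bar at the median. In MDA-MB-231 labelled ERK5-ko the class I median lies at 0.30 while the medians of interferon-induced and class II genes lie at -0.51 and -1.07.

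Most members lie in 1 stretch of chromosome 6, so the 105 other tested genes between the start of HLA-F and the end of TAPBP (29722775 to 33314387) were counted as well. In MDA-MB-231 labelled ERK5-ko 7.62% of these neighbours were higher and 16.2% lower, with a median log2 fold change of -0.08. With MEK5DD 17.1% were higher and 17.1% lower, with a median of 0.01. In Hs-578T 21% of the neighbours were higher and 10.5% lower under the ERK5-ko label, and 1.9% were higher and 17.1% lower with MEK5DD.

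The members also differed in how closely they tracked HLA-B across the 12 libraries. After centring each gene within its line, HLA-B correlated at 0.985 with TAP1 and 0.94 with HLA-C, and at 0.163 with HLA-E. The pair HLA-B and HLA-C correlated at 0.999 within MDA-MB-231 but at 0.215 within Hs-578T, and HLA-B and TAP1 at 0.998 and 0.79. HLA-C and HLA-E correlated at 0.169 within MDA-MB-231 and at 0.934 within Hs-578T. TAP2 correlated at -0.915 with B2M. Within MDA-MB-231 alone TAP2 correlated at -0.937 with TAP1, and within Hs-578T at 0.545, over 6 libraries each. The genes outside the lists whose centred values were most like the mean of the 9 members over the 12 libraries were NINJ1 (0.979), ITPKC (0.975), MKNK1 (0.973), HSPB1 (0.973) and CACFD1 (0.972), and the most opposite were PDZD2 (-0.983), FAM35A (-0.98), DYRK3 (-0.973), MTSS1 (-0.972) and CPED1 (-0.972). These values describe 12 libraries in 6 groups that share their libraries and scaling. Centring within a line keeps the differences between its groups, so the correlations include the group differences given above and are no separate result. The most alike and most opposite genes were picked as extremes of many genes, so high values follow in part from that choice. The mean of the 9 members also includes TAP2, which ran against B2M.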

How the data were processed

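The study sequenced mRNA of 12 libraries made with a stranded kit, and the submitters' processing notes name Trimmomatic 0.32, TopHat2 2.1.1, DESeq2 1.12.4 and GRCh38. The authors deposited RPKM values, which scale reads to gene length and to library total. Each gene's length was found to be the mean over its annotated transcripts, matching GENCODE 29 for 27628 genes and solved for 4524, and all 32152 genes then gave whole reads (tolerance 0.001 reads). Totals shifted by 1% gave whole reads for 0 of 500 genes.

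The 13737 protein-coding genes that reached an RPKM of 0.5 in 2 or more libraries entered 1 model of log2(RPKM + 0.5) in limma 3.58.1 (R 4.3.3), with 6 group means, all 12 libraries and a variance trend, and p values were adjusted by Benjamini-Hochberg over these genes in each of 9 comparisons. A gene passed at an adjusted p under 0.05. Folds are those of RPKM + 0.5 and understate changes of low genes. An exact permutation test of 2 against 2 libraries cannot go below 0.333. The fit was also run on simulated data, and the outcome is not reported here.

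Same-numbered replicates deviated together in all 6 pairs of groups within a line (correlations 0.107 to 0.541), so the replicate number, from the titles, was taken to pair libraries and was used as a block in an alternative fit.

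The members and gene lists were chosen with earlier results of these data known. All members were named, and of each other list at most 3 genes that passed with the widest change per comparison, with others named where a count was small, after their values were seen. The 5 genes most like and the 5 most opposite to the members' mean were also named, as was CIITA of the class II list. Some genes of these lists are not reported here by name.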

Additional observations from a re-analysis of the deposited data

Results flagged for a closer look

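In 11 cases the change of a class I gene differed between the lines by the test of that difference, given as the log2 change in MDA-MB-231 minus that in Hs-578T. Under the ERK5-ko label these were TAP2 (-1.48, adjusted p = 0.000252), B2M (1.09, 0.00195), HLA-C (0.80, 0.00308) and HLA-E (0.50, 0.00648). With MEK5DD they were HLA-B (-1.17, adjusted p = 0.000877), HLA-C (-0.78, 0.00329), TAP2 (0.86, 0.007), B2M (-0.83, 0.00915), TAP1 (-0.57, 0.0111), HLA-E (0.35, 0.0362) and TAPBP (-0.41, 0.0415). HLA-E and TAPBP with MEK5DD each lost the call in 6 of the 8 fits that left out 1 library. Groups of 2 libraries are too small to test a single library as an outlier.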

How the results depend on the processing

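Over 11 other ways of processing, 818 of 864 values of the 9 genes kept their side of the threshold, 25 lost the call, 21 gained it and none that passed changed direction. Leaving out 1 library changed 60 of 396 calls, 51 of them lost. Pseudocounts of 0.1 and 1 changed none. The replicate block lost no call and added the 8 given beside their results, and it changed no other call. The causes of the changes below were not tested. With MEK5DD in MDA-MB-231, 0 members were higher with no filter on low values, and 2 with only the libraries of that line or with limma voom on recovered reads, an alternative chosen after seeing the data, against 1. In Hs-578T labelled ERK5-ko 0 were lower with only its own libraries, against 2. With MEK5DD in Hs-578T the 2 lower members became 1 with no filter or without the variance trend, and 0 with median-ratio scaling, quantile normalization or only its own libraries. For ERK5-ko against MEK5DD in Hs-578T the block gave 2 lower members against 1. For the MEK5DD difference between lines, median-ratio scaling and quantile normalization gave 1 higher member against 2. With 1 library left out, members higher and lower in MDA-MB-231 labelled ERK5-ko numbered 0 to 1 and 0 to 0, and members higher with MEK5DD 0 to 0. In Hs-578T those lower under the ERK5-ko label numbered 0 to 2, and those higher and lower with MEK5DD 0 to 1 and 0 to 3. ERK5-ko against MEK5DD in Hs-578T gave 1 to 2 lower, the ERK5-ko difference between lines 3 to 5 higher and the MEK5DD difference 1 to 2 higher. A lone library left in a group was assumed to vary like the other groups. The counts with 1 library left out were not set beside the shares of all tested genes in the same fits. With 2 libraries a group, small differences cannot be detected, and the HLA alleles of the lines were not analysed here.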
